A study of Mus musculus with 4 samples.

Results

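Bidirectional promoters are stretches of DNA near the starts of 2 genes that are transcribed from opposite strands. Here they were the open chromatin regions, merged over all libraries by the authors, that lay within 1000 bp of the start of at least 1 plus-strand gene and of at least 1 minus-strand gene, on the autosomes. The rule used the deposited distances between regions and gene starts and no peak height. It gave 1174 regions of 12477 merged regions (9.41%), on all 19 autosomes, and they were 15.4% of the 7618 autosomal regions with any start within 1000 bp. The other 6444 had starts on 1 strand only and serve as the comparison. A region is listed only where at least 1 library had a called peak. The 1174 regions lay near 2152 genes and made 1071 distinct pairs of nearest genes, so that 203 regions shared their pair with another region of the set, and these are not independent of each other.

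The assay was ATAC-seq: a transposase, Tn5, inserts sequencing adapters where DNA is accessible, here in nuclei of frozen subcutaneous white adipose tissue (WAT) from wild-type (WT) mice. There were 4 libraries, 2 from females (female 1 and female 2) and 2 from males (male 1 and male 2), and the comparison that the design names is between the sexes. The sources used here give no age, strain or treatment, nor do they say if each library is from an animal of its own or from a pool, so the p-values measure only the spread between these samples, which may be technical. Since whole tissue was used, fewer nuclei of an accessible cell type and less accessible DNA per nucleus cannot be told apart.

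In mammalian genomes many genes lie head to head, with 2 transcripts that leave a short shared stretch of DNA in opposite directions. Such promoters are usually rich in CpG dinucleotides and lack a TATA box, and they are known for housekeeping genes of DNA repair, mitochondria and RNA processing. The second transcript can be another protein-coding gene or a noncoding RNA, and replication-dependent histone genes are often arranged as such divergent pairs.

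To show what these promoters look like, the RefSeq promoter windows (GRCm38.p6, the assembly that the UCSC browser calls mm10; 250 bases before to 50 after a gene's start) are given for 3 pairs of a list of known head-to-head genes. Each is written 5′ to 3′ on the strand of the gene named after the pair, and capitals mark letters of 9 of the 11 motifs searched, on either strand. Those marked were the SP family box GGGCGG, the CCAAT box CCAAT, the ETS core CCGGAA, the NRF1 site (GCGC, 1 base of any kind, TGCGC), the YY1 site AAGATGGC, the cyclic AMP response element TGACGTCA, the E box CACGTG, the TATA box TATAAA and the ZNF143 core (ACTACA, 2 bases of any kind, TCC). Left in lower case were the short core of the cyclic AMP response element, TGACGT, and a nuclear receptor half-site, AGGTCA. A match is a description of the letters only, and a window can reach beyond the open region.
Hspd1/Hspe1, window of Hspe1 (chr1:55087898-55088197, plus strand): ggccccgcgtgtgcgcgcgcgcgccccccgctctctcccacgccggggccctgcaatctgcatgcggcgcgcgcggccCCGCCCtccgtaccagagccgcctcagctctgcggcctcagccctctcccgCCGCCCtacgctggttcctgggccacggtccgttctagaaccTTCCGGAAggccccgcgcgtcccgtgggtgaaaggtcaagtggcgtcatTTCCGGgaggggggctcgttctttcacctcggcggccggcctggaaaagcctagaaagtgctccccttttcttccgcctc
Brca1/Nbr1, window of Brca1 (chr11:101551906-101552205, minus strand): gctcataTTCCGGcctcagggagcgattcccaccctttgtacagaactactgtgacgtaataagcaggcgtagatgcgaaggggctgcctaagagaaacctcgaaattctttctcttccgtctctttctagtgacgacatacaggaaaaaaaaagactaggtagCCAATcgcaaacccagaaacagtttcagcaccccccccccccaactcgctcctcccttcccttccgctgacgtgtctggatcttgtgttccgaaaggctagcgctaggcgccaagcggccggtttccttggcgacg
Atm/Npat, window of Atm (chr9:53536622-53536921, minus strand): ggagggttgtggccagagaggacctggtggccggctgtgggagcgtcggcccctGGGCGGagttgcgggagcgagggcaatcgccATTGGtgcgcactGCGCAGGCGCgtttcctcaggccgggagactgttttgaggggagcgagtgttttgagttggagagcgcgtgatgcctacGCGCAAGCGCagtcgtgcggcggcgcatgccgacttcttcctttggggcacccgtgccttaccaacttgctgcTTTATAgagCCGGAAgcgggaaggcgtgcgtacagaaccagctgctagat
Hspd1 and Hspe1 encode the chaperonin of the mitochondrial matrix and its co-chaperonin, and the start of Hspd1 fell inside the window, at base 35 counted from its first base. Its window held 2 SP boxes and 3 matches of the ETS core, of which 2 overlap as a palindrome. Brca1, a DNA repair gene, faces Nbr1, an autophagy receptor gene, whose start lay at base 99, and the window held a CCAAT box 86 bases before the start. Only the first 95 bases of this window lay inside the open region, so the CCAAT box and the Nbr1 start lay outside it. Atm encodes the kinase that answers DNA double-strand breaks and Npat a coactivator of histone genes. The window of Atm held 2 NRF1 sites, an SP box, a CCAAT box, an ETS core and TATA letters at the start itself.

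Windows of regions picked for their sex differences are shown in the same way, and were added after their values were seen. One is the window of Hook1, whose region was the only one called lower in males, and the other that of Cby1, whose region stood highest in males relative to all regions.
9530080O11Rik/Hook1, window of Hook1 (chr4:95967129-95967428, plus strand): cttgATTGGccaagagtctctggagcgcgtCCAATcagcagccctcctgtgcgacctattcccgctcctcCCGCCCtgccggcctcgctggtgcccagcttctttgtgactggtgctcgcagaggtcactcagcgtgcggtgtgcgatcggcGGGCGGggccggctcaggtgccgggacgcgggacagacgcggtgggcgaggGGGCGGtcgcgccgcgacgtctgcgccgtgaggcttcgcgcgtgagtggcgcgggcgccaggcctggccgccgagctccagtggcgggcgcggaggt
Fam227a/Cby1, window of Cby1 (chr15:79658977-79659276, plus strand): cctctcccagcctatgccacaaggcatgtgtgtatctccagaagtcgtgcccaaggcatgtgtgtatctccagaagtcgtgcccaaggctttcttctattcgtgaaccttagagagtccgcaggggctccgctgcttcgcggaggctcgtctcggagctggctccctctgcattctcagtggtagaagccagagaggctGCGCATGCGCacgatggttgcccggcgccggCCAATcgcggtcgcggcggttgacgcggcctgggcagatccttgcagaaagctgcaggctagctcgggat
The Hook1 window held 3 SP boxes and 2 CCAAT boxes, and the Cby1 window a CCAAT box and the NRF1 palindrome. Only the first 133 bases of the Hook1 window lay inside its open region, so the SP boxes at bases 153 and 204 lay outside it. The Cby1 window lay wholly inside its region.

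Over all regions with a matching window (1042 of the 1174 had one for at least 1 of their genes), the letters of bidirectional promoters were those of CpG-rich promoters. Median GC content was 64% for plus-strand and for minus-strand genes, against 62% for one-strand regions and 52.7% for all 32851 windows of the RefSeq table. The ratio of observed to expected CpG was 0.872 and 0.870 for the genes of bidirectional regions, 0.804 for one-strand regions and 0.384 for all windows. The ETS core showed the widest gap to one-strand promoters in percentage points: it was found in 42.8% of 814 plus-strand and 42.7% of 797 minus-strand windows, in 31.9% of 4525 one-strand windows and in 14.9% of all windows. NRF1, a regulator of mitochondrial genes, had a site in 16.7% and 16.4% of the windows, against 12.95% and 4.60%.

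YY1 sites were found in 7.86% and 6.78% of the windows of bidirectional regions, in 5.06% of one-strand windows and in 2.75% of all windows. The SP box did not separate the classes of promoter, with 71.7% and 71.6% against 73.3% in one-strand windows, although all windows held it in 35.7%. CCAAT boxes stood at 40.9%, 43.7% and 42.8% (all windows 37.4%). TATA letters were in 5.65% and 4.39%, against 5.68% in one-strand and 13.6% in all windows. The rates for plus-strand and minus-strand genes of bidirectional regions were close, but this cannot be read as a property of the strands. Motifs were counted on either strand, and each window reached from 250 bases before to 50 after its start. At the median distance of 181 bp between divergent starts, the windows of a pair therefore share most of their letters. Close rates follow largely from this overlap, and the windows were given no test.

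**Figure D1:**
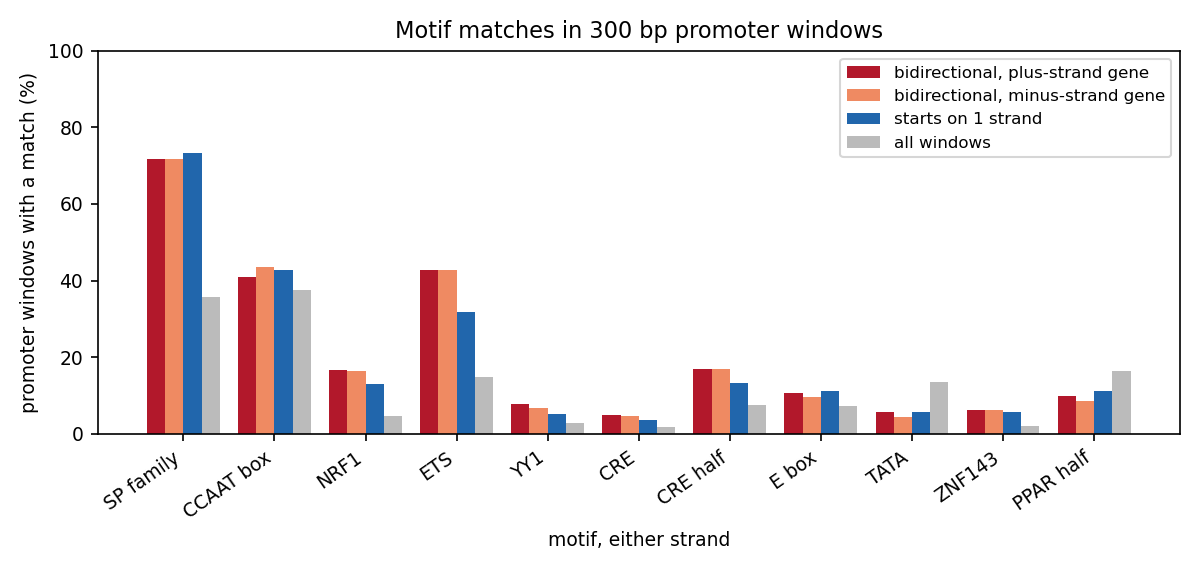
Percentage of 300 bp RefSeq promoter windows (250 bases before to 50 after the start) with at least 1 match of each motif on either strand, for plus-strand and minus-strand genes of bidirectional regions, genes of one-strand regions and all windows of the table. ETS letters stand at 42.8% and 42.7% in bidirectional windows against 31.9% in one-strand windows, and TATA letters are lower in all promoters near open regions than in all windows.

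The starts of a pair lay close together. In 967 of the 1174 regions (82.4%) the minus-strand start lay to the left of the plus-strand start, so that the genes were divergent, and the median distance between the starts was 181 bp (quartiles 101 and 334 bp, at most 1449 bp). In the other 207 regions the starts were crossed, so that the 5′ ends of the genes overlap, by a median of 323 bp. The regions had a median width of 310 bp, against 237 bp for one-strand regions and 195 bp for all regions, and 520 of them (44.3%) covered both starts. Since regions are merged peaks, their width also depends on which libraries had a peak there. Most peak summits sat between the starts: at divergent regions 67.6% and 69.7% of the summits of the females lay there. The shares were 69.8% and 59.9% in male 1 and male 2. The signed offset of the summit from the midpoint had medians of 2.50 to 6.50 bp, in which summits to the left and right cancel. Its quartiles were -64 and 64.6 bp in female 1 and -93 and 102 bp in male 2.

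The libraries differed over all regions before any class was considered. The median log2 height changed by -0.27 from female 1 to female 2, by -0.27 from female 2 to male 1 and by -0.47 from male 1 to male 2. The step between the nearest libraries of different sex was thus no larger than the steps within the sexes. Male 2 also stood apart in its wide peaks: at bidirectional regions the median peak was 337 bp wide there and 204, 198 and 192.5 bp wide in the first 3 libraries (female 1, female 2, male 1). The sources used here give no read totals, so the depth behind each value is unknown. The labelled tissue was checked against its markers: 4 of 8 adipocyte markers (Cfd, Cidec, Pparg and Lipe) had a linked region in the gene table, with summed heights of 160.5, 139.7, 83.1 and 57.6 in female 1, female 2, male 1 and male 2. Among markers of other cells, Cldn3 and St14 of mammary epithelium (2 of 8 in the table) summed to 45, 40.3, 11.3 and 3.67 in the same order, and no keratinocyte marker of 3 was in the table. Markers of other cells or tissues had linked open regions too. Skeletal muscle (Mb, 1 of 4) had 70, 50.1, 24 and 17.6, B cells and lymph node (Cd79a, 1 of 4) had 67, 60.8, 43.8 and 24.97, and macrophages (Cd68, 1 of 4) had 54, 50.1, 30.4 and 18.9. Endothelium (Pecam1, Tek and Tie1, 3 of 5) summed to 72, 55.1, 38.9 and 34.5, and progenitors (Ly6a and Pdgfrb, 2 of 4) to 48, 33.7, 18.4 and 31.6. Except for progenitors, where male 2 stood above male 1, these sums had the same order of libraries as the adipocyte sum.

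Bidirectional regions were called open more often than one-strand regions in every library, and most of all in male 2. A called peak was present at 87.8% and 73.9% of them in female 1 and female 2, and at 63.3% and 57.7% in male 1 and male 2. The one-strand regions had 85.9%, 69.4%, 54.8% and 40.1%. The ratio of the percentages was 1.02, 1.07, 1.15 and 1.44 in that order, so it was near 1 in the female libraries, which had most peaks, and largest in the library with the fewest. These ratios describe single libraries, and male 2 was not matched by male 1.

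A peak was present in all 4 libraries at 474 regions (40.4%), against 26.6% of one-strand and 19.9% of all regions. Without male 2, peaks in the other 3 libraries were present at 55.5% of bidirectional and 45.9% of one-strand regions. Of the 652 bidirectional regions with a peak in the other 3 libraries, 72.7% also had one in male 2, against 58.1% of 2957 one-strand regions. The corresponding shares for male 1 were 88.4% and 87.6%, which lay close together. A peak in male 2 only was seen at 57 bidirectional regions (4.86%) and at 4.05% of one-strand regions.

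**Figure D2:**
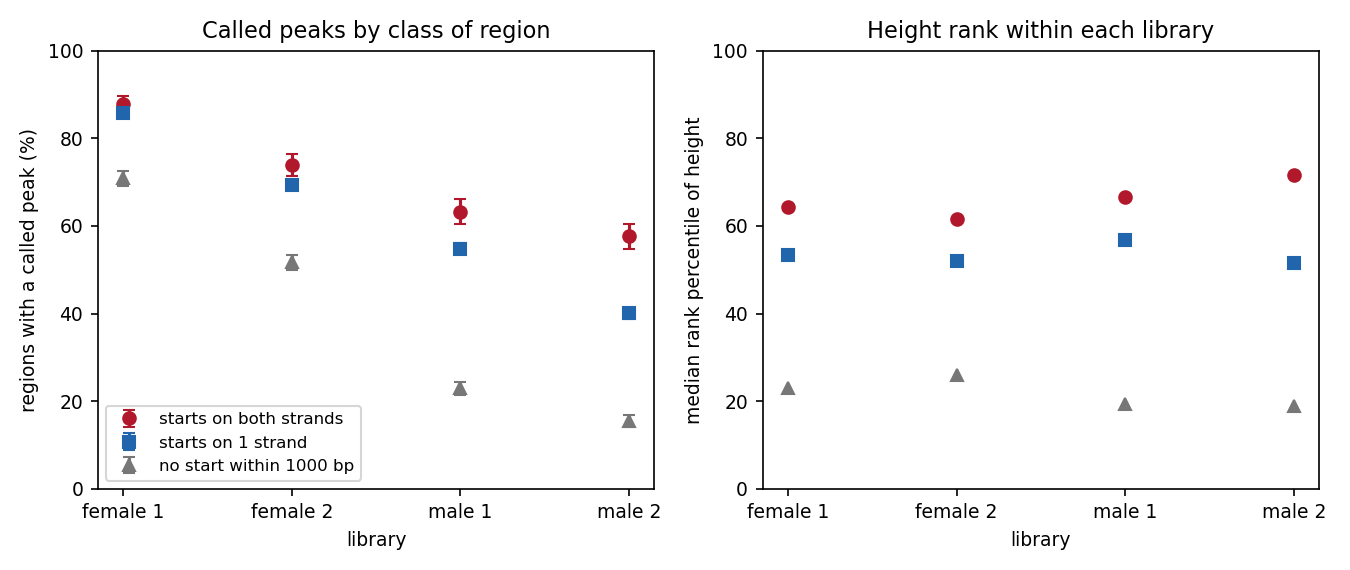
Left, percentage of regions with a called peak in each library for regions with starts on both strands (1174), on 1 strand (6444) and linked regions with no start within 1000 bp (3146); bars are exact 95% binomial intervals, which cover counting error only. Right, median percentile of the height among all rows of the library; regions with starts on both strands stand highest in each library, at 71.5 in male 2.

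Peak heights, which count the tags stacked at a peak after scaling by the authors, were read for the 825 bidirectional regions to which at least 1 gene was linked with no other region. The deposited height of a gene is a mean over its linked regions, so the other 349 regions had no height of their own. All 825 had a height above 0 in at least 2 libraries, the filter used. A height is given in every library, also where no peak was called there. The median height was 44 and 33.7 in female 1 and female 2 and 28.3 and 19.1 in male 1 and male 2, against 39, 30.4, 25.4 and 14.7 for 3879 one-strand regions. Bidirectional regions were thus higher in each library, by 1.13, 1.11, 1.11 and 1.30 times.

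The highest of the named regions lay between Xrcc3, of homologous recombination, and Zfyve21, with heights of 128 and 106 in the females and 89.1 and 49.2 in the males. Gins2, a subunit of the replicative helicase, and the predicted gene Gm10614 had 114, 89.6, 81.3 and 30.8 in female 1, female 2, male 1 and male 2. At both regions the males stood below the females and male 2 lowest. Srgap2, which encodes a GTPase-activating protein, and Fam72a shared a region with 109, 93.7, 78.5 and 42.6. Samd4b and Gmfg, a regulator of actin branching, had 113, 85.5, 67.2 and 41.1 in that order.

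The other 2 of the 6 highest regions departed from this order of the libraries. Gm20753 and Phlpp1, a phosphatase that acts on Akt, had heights of 103 and 85.5 in the females, 48.8 in male 1 and 66.8 in male 2. Swi5, a recombination gene, and Golga2, which encodes a Golgi matrix protein, had 96 and 64.9 in the females, 43.8 in male 1 and 89.6 in male 2, so that the sexes overlapped. At both, male 2 stood above male 1, the reverse of the library medians.

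The known pairs that were members showed different degrees of openness. Hspd1/Hspe1 had a peak in all libraries and heights of 77, 53.4, 34.6 and 36 in female 1, female 2, male 1 and male 2. Brca1/Nbr1 had heights of 78, 73.2, 43.8 and 28.6, and Atm/Npat had 65, 81.4, 41 and 38.2 in the same order. In all of these the females stood above the males, and the males of Hspd1/Hspe1 and Atm/Npat lay close to each other.

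Lower regions were found at other known pairs. Ndufs3/Kbtbd4, where Ndufs3 encodes a subunit of respiratory complex I, had 44 and 19.7 in the females and 21.9 and 12.5 in the males, so that the sexes overlapped. Osgep/Apex1, with Apex1 a base excision repair endonuclease, had a peak only in female 1 and heights of 28, 11.5, 15.6 and 8.08. Sirt3/Psmd13, a mitochondrial deacetylase facing a proteasome subunit, had 2 regions with no height of their own, with a peak in male 1 at one and in female 2 and male 2 at the other. Not all known pairs were thus open in every library. Psenen/U2af1l4 had a peak only in female 1 and Dclre1b/Ap4b1 one in each library, both with no height of their own. Ybey/Mcm3ap, a crossed pair, had heights of 29, 25.5, 14.8 and 14.7, with both males below both females. At Tfpt/Prpf31, with Prpf31 a splicing factor gene, a height could be separated from that of a second region only by subtraction, and it was 18 and 12.3 in the females and 20.5 and 16.2 in the males, which overlapped.

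Other known pairs lay within or at the quartiles of all bidirectional regions in the females (32 and 59 in female 1, 25.5 and 46.9 in female 2). Itgb1bp1/Cpsf3, with Cpsf3 the endonuclease that cleaves pre-mRNA before polyadenylation, had a peak in all 4 libraries and heights of 49, 42.7, 25.4 and 11.7 in female 1, female 2, male 1 and male 2. Wrap53/Trp53, the pair of the p53 gene, had a narrow region near the start of Wrap53 with 40, 25.5, 21.2 and 9.55. Cdc45, of the replicative helicase, and Ufd1l shared a region with 51, 32.1, 24 and 16.2. In these pairs the males again stood below the females. At the locus widely used for transgenes, Gt(ROSA)26Sor/Setd5, heights were 73, 59.2, 47.4 and 41.1.

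Openness differed with the distance between the starts. The 241 divergent regions with starts at most 100 bp apart had the lowest median heights of the divergent bins, 36, 27.1, 22.6 and 15.4 in female 1, female 2, male 1 and male 2, and 28.6% of them had a peak in all libraries. At over 100 and up to 200 bp (273 regions) the medians were 46, 35.8, 29.7 and 19.1 and the share was 41.8%. At over 200 and up to 300 bp (164 regions) they were 51, 37.8, 32.9 and 20.6, with 51.8%. The share was 50.7% from there to 500 bp and 46.2% beyond, and 31.9% of crossed regions had a peak in all libraries.

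The male libraries differed in one step of this series. Up to 100 bp and from there to 200 bp the share with a peak in male 1 was 51.04% and 73.6%, and that in male 2 was 49.8% and 52.4%. From 200 to 300 bp the libraries had 72.0% and 72.6%. The median region also grew wider, from 258 bp to 291 bp and 361.5 bp over these bins. The width of a merged region itself depends on the calls, and male 2 had wide peaks. How width and the calls of male 2 go together was not tested.

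**Figure D3:**
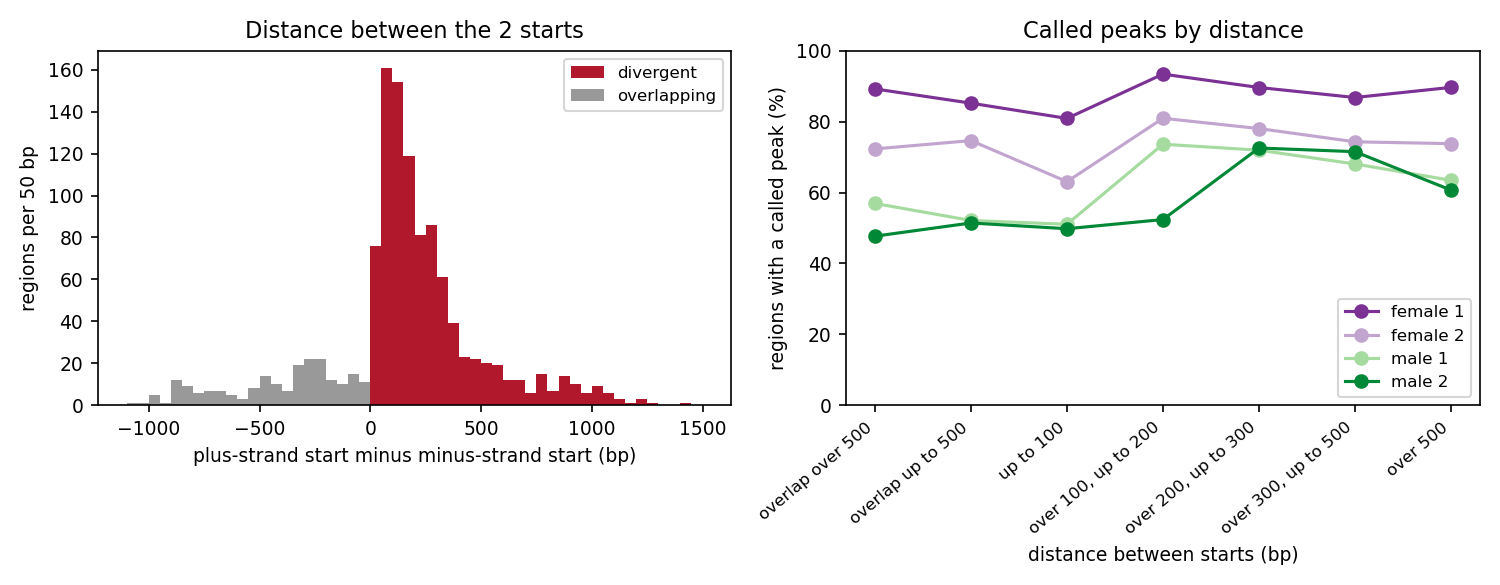
Left, number of bidirectional regions per 50 bp of distance between the plus-strand and the minus-strand start; negative distances are crossed starts. Right, percentage of regions with a called peak in each library by bin of that distance; male 1 reaches 73.6% between 100 and 200 bp where male 2 stands at 52.4%, and they stand at 72.0% and 72.6% between 200 and 300 bp.

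CCAAT boxes, though no more frequent here than at one-strand promoters, were found at the more open bidirectional regions. Of 726 regions with a window for both genes, 372 held CCAAT in at least 1 window, and 51.9% of these had a peak in all libraries, against 30.2% of the 354 without. Their median heights were 50, 39.5, 32.5 and 19.8 in female 1, female 2, male 1 and male 2, against 39, 30.4, 25.4 and 17.6 without the box. Their starts were also farther apart (median 171.5 against 113 bp), so the shares were read within bins of distance. The bins hold divergent pairs only, and crossed pairs among the 726 were left out of them. With and without CCAAT, peaks in all libraries were at 37.3% and 22.4% for starts at most 100 bp apart, 60% and 30% from there to 200 bp, and 58.7% and 37.5% beyond.

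The ETS core showed no such pattern at short distances. With and without it, peaks in all libraries were at 26% and 28.4% up to 100 bp and 44.1% and 48.1% from there to 200 bp, and at 58.7% and 42.5% beyond. In total, crossed pairs included, the 385 regions with it had 43.4% and the 341 without 39%. These splits over 11 motifs were chosen with the values known and are descriptions of this set of promoters.

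The kinds of genes in a pair also differed in openness. Both nearest genes were protein coding at 762 regions, and a coding gene faced a long noncoding RNA (lncRNA) at 293. Female 1 had a peak at 88.2% and 85.7% of them, female 2 at 73.6% and 76.1% and male 1 at 65.4% and 60.1%, while male 2 had one at 63.9% of coding pairs and 44% of coding and lncRNA pairs. Peaks in all libraries were present at 45.01% and 30.7%. The median heights were close, at 44 and 45 in female 1 and 19.1 and 17.6 in male 2. The starts were 164.5 bp apart in coding pairs and 111 bp in coding and lncRNA pairs, as medians.

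Small RNA genes were part of another group of 26 regions where a coding gene faced another class of RNA or a pseudogene. Slc25a29, a mitochondrial carrier gene, and Mir345 had 68, 83, 60.8 and 55.1 in female 1, female 2, male 1 and male 2, so that the males stood close below female 1. The RNA of ribonuclease P, Rpph1, faces Parp2, a DNA repair gene, and had 56, 60.8, 27.6 and 30.1 in the same order. The RNA of ribonuclease MRP, Rmrp, faces Ccdc107 and had 75, 51.8, 39.6 and 19.8. Peaks in all libraries were present at 53.8% of the group.

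Genes of DNA repair and replication, a list matched by symbol, were 2.05% of the genes at bidirectional regions (44 of 2152) and 1.16% of the genes at one-strand regions (70 of 6032). RNA processing genes were 2.32% and 1.56%, and genes of mitochondrial respiration and the mitochondrial ribosome 2.88% and 2.19%. Genes of the transcription machinery were 1.30% and 1.01%. Histone genes stood at 0.744% against 0.199%, and noncoding or antisense names stood at 18.9% against 5.29%. Of the 14 lists, 8 stood the other way. Genes of adipocyte metabolism had 4 genes (0.186%) against 0.862%, and zinc finger genes 1.21% against 3.17%. Other lists of housekeeping genes were among the 8: cytosolic ribosomal proteins had 0.418% against 0.779%, cell cycle genes 0.651% against 1.14%, and proteasome and ubiquitin genes 1.998% against 2.64%. Vesicle trafficking genes had 1.53% against 1.92%, translation factors and tRNA synthetases 0.836% against 1.09%, and chromatin modifiers 0.976% against 1.03%. Since the symbols and head-to-head order are properties of the genome, these shares describe which promoters are bidirectional and say nothing of the tissue by themselves.

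Among repair genes, Parp3/Rrp9 had heights of 89, 64.1, 50.9 and 30.1 in female 1, female 2, male 1 and male 2, and 22 of the 47 regions of the list had a peak in all libraries. Mitochondrial genes included Mrpl18, of the mitochondrial ribosome, facing the cytosolic chaperonin gene Tcp1, with 82, 82.2, 58 and 31.6. They also included Tfb1m, which methylates mitochondrial ribosomal RNA, with 96, 65.8, 52.3 and 35.2. In all of these both males stood below both females. Of the fat genes, Hadha and Hadhb, the subunits of the mitochondrial trifunctional protein of fatty acid oxidation, shared a region with 34 and 33.7 in the females and 17 and 22.8 in the males, and female 1 had no called peak there.

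Histone pairs were low. In 8 of the 9 regions with a histone gene both genes were histone genes, and only 1 of the 9 regions had a peak in all libraries. The 5 with a height of their own had medians of 25, 20.6, 18.4 and 11 in female 1, female 2, male 1 and male 2, below the medians of all bidirectional regions. Hist2h2ac/Hist2h2be had heights of 30, 21.4, 23.3 and 11.7, and Hist1h2ac/Hist1h2bc had 26, 20.6, 21.9 and 11, so that male 1 stood between the females in both.

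Heights differed between the sexes in the same direction and by nearly the same amount as at other regions. The median log2 difference, male minus female on the log2(height + 9) scale, was -0.60 over the 825 regions, -0.63 over one-strand regions and -0.63 over all 9357 rows fitted. Differences are therefore also given relative to the median of all rows, against which the 825 regions stood at 0.03 and the one-strand regions at 0.01. Both males were below both females at 584 regions (70.8%) and above them at 5 (0.606%). One-strand regions had nearly the same shares, 70.6% and 0.516%. All rows, which also hold means over several regions, had 77.2% and 0.374%. With each library centred on its median, 16.8% were below (one-strand 19.4%, all rows 21%) and 22.7% above (one-strand 20.0%, all rows 19.3%). This small surplus of higher regions was not tested.

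The limma test with Benjamini-Hochberg adjustment over all rows called 1 of the 825 regions lower in males and 0 higher, against 0.855% of all rows lower and 0% higher. At an unadjusted p under 0.05, limma had 206 regions lower (24.97%, all rows 31.6%) and 0 higher (all rows 0.0107%). With the libraries centred, limma called 0 in either direction (all rows 0% and 0%). At an unadjusted p under 0.05 there were then 25 lower (3.03%, all rows 3.41%) and 59 higher (7.15%, all rows 4.63%). The counts changed with single libraries. Each fit without a library leaves 1 library in a sex, so that the spread comes from the 2 libraries of the other sex and the lone library is assumed to vary like them. In such fits limma called 0 regions lower without female 1 (all rows 0.246%) or without male 2 (all rows 0.0214%), 1 without female 2 (all rows 0.588%), which was Fbxo43/1700074I03Rik and not the region called with all libraries, and 422 lower and 2 higher without male 1, where all rows had 56.4% and 0.267%. With 2 libraries of each sex, the smallest two-sided p of an exact permutation test is 0.33.

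The region called lower lay near Hook1, which encodes a protein that links endosomes to microtubules, and the crossed noncoding gene 9530080O11Rik (chr4:95967029-95967261, mm10). Its heights were 27 and 21.4 in female 1 and female 2 and 4.95 and 3.67 in male 1 and male 2. The female mean was 24.2 ± 3.96 and the male mean 4.31 ± 0.905 (SD, n = 2 per sex, limma adjusted p = 0.0266). Both females had a called peak and neither male had one, and the sexes did not overlap. The log2 difference was -1.31 (SE 0.341), or -0.68 relative to all rows. The relative difference was -1.40 with a pseudocount of 1 and -0.23 with 36, and the limma adjusted p was 0.0455 and 0.0310. The region did not pass with libraries centred on their medians (limma adjusted p = 0.616) or with quantile normalization (limma adjusted p = 0.626). Its relative difference was -0.69 without female 1, -0.67 without female 2, -0.51 without male 1 and -0.85 without male 2. The summed heights of the mammary epithelium markers Cldn3 and St14, given above, were also lower in both males. The same held for the other marker sums given there, that of adipocytes included. What part any cell type had in this result was not tested.

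Another 5 regions were the lowest in males among those whose sexes did not overlap, and none passed the test. Usp34, a deubiquitinase gene, and Gm3718 had heights of 101 and 78.9 in the females and 45.2 and 18.4 in the males (limma adjusted p = 0.0693). Arv1, of sterol handling in the endoplasmic reticulum, and Ttc13 had 85, 56.7, 36.8 and 12.5 in female 1, female 2, male 1 and male 2. Nop14, of ribosome assembly, and Grk4, a receptor kinase gene, had 86, 79.7, 41 and 19.1 in the same order. In each of these male 2 lay well below male 1. Pcsk4/Reep6 and 1700052K11Rik/Tlk2 had relative differences of -0.66 and -0.65. Without male 2 the 5 relative differences lay between -0.57 and -0.38.

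Relative to all rows, 6 regions stood highest in males, and none passed the test either. Fam227a and Cby1, which encodes a protein of the base of cilia and of Wnt signalling, had heights of 22 and 13.2 in the females, 14.8 in male 1 and 46.3 in male 2, a relative difference of 1.10 (limma adjusted p = 0.296). Gosr2, a Golgi SNARE gene, and C130046K22Rik had 36 and 20.6 in the females, 22.6 in male 1 and 55.1 in male 2. Rbbp4, a histone-binding protein gene, and Zbtb8os had 47, 41.1, 41 and 72.0. On the deposited scale the sexes overlapped at these regions, since only male 2 was high. Without male 2 the relative differences were 0.26 at Fam227a/Cby1, 0.19 at Gosr2/C130046K22Rik and 0.32 at Rbbp4/Zbtb8os, against 1.10, 0.94 and 0.90 with it.

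The other 3 regions of this group had no height above 36 in any library. Crnkl1, a spliceosome gene, and 4930529M08Rik had 24 and 27.1 in the females and 29.7 and 36 in the males, with peaks called in both males and in neither female. Here both males stood above both females, and the limma adjusted p was 0.551. Itgb3bp, a kinetochore gene, and Efcab7 had 4 and 12.3 in the females and 15.6 and 11 in the males, which overlapped. Taf4a, a subunit gene of the general factor TFIID, and 4921531C22Rik had 14 in both females and 15.6 and 21.3 in the males, so that the sexes did not overlap, and a peak was called in male 2 only.

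**Figure D4:**
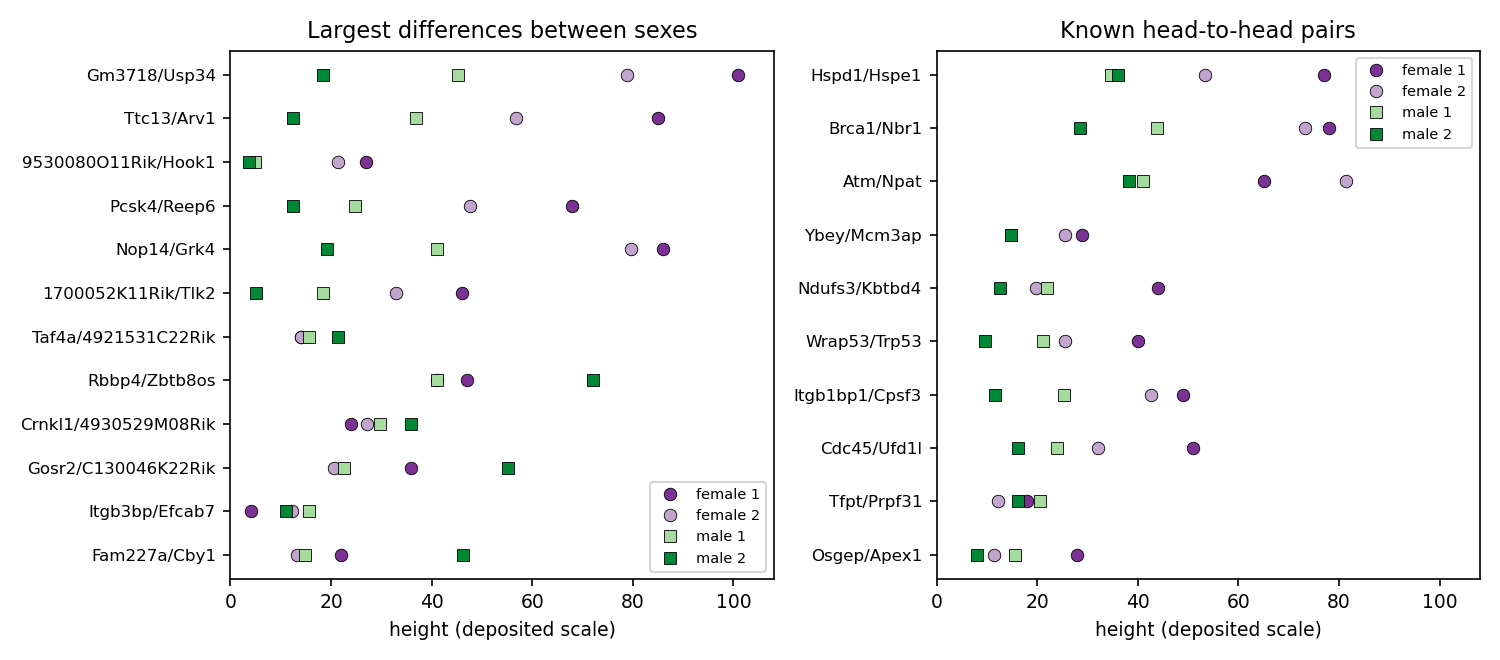
Height of each library (circles female, squares male; deposited scale, no error bars since each point is 1 library). Left, the 6 regions lowest and the 6 highest in males relative to all rows among those whose sexes did not overlap after centring; at Fam227a/Cby1, Gosr2/C130046K22Rik and Rbbp4/Zbtb8os male 2 stands far to the right of the other 3. Right, 10 known head-to-head pairs with a height, where Hspd1/Hspe1, Brca1/Nbr1 and Atm/Npat have both females above both males.

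Called peaks gave a like account of the sexes. A peak in both females and in neither male was present at 98 bidirectional regions (8.35%), against 12.9% of all merged regions, and a peak in both males and neither female at 7 (0.596%), against 0.465%. The regions of the first kind included that of Mrpl41, of the mitochondrial ribosome, and Pnpla7, a lysophospholipase gene, with heights of 57, 54.3, 32.5 and 16.2 in female 1, female 2, male 1 and male 2. They also included Gm16675 and Irf2, an interferon regulatory factor gene, with 54, 51, 36.8 and 13.2. Of the second kind, Cebpz/Ndufaf7, with Ndufaf7 an assembly factor of respiratory complex I, had 21, 19.7, 21.2 and 18.4, and Ndufs1, a complex I subunit, with Eef1b2 had 26, 20.6, 19.8 and 18.4. The heights of the last pairs lay close together in all libraries, so the peak calls separated the sexes where the heights did not.

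**Figure D5:**
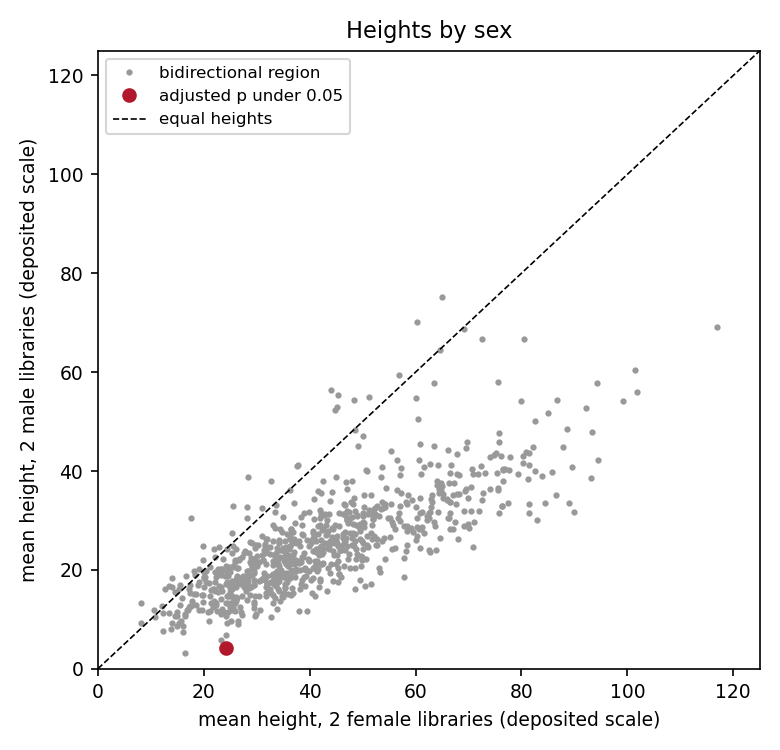
Mean height of the 2 male libraries against the mean of the 2 female libraries for the 825 bidirectional regions with a height of their own (deposited scale, no error bars drawn). Most points lie below the dashed line of equal heights; the red point is the Hook1 region at 24.2 in females and 4.31 in males.

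Calls within the gene lists were few. In 13 of the 14 lists limma called 0 regions in either direction, and the list of noncoding or antisense names held the Hook1 call. With 0.855% of all rows called lower and 0% higher, lists of this size would hold few calls at the common rate, so the counts of 0 say nothing particular about a list. Medians relative to all rows ran from -0.03 for proteasome and ubiquitin genes (34 regions) to 0.41 for cytosolic ribosomal protein genes (5 regions), with 0.29 for histone genes (5 regions) and 0.20 for cell cycle genes (12 regions). For the 38 regions of DNA repair and replication the median was 0.04 and for the 47 of mitochondrial genes it was 0.06. At Rps18/Vps52, with Rps18 of the small ribosomal subunit, heights were 34 and 25.5 in the females and 29 and 19.8 in the males, which overlapped.

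Distance between starts went with the size of the sex difference too. Regions with starts at most 100 bp apart had a median difference of -0.45, or 0.18 relative to all rows (179 regions), while the bins beyond 100 bp lay between -0.05 and 0.03. The value for the shortest distances was 0.11 without male 2, 0.20 without male 1, 0.19 without female 1 and 0.15 without female 2, and 0.22 and 0.09 with a pseudocount of 1 and 36. These regions were also the lowest in all libraries, and how far height enters the difference was not tested.

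At the limit of 1000 bp, the 2 regions just inside and the 2 just outside varied widely on both sides. Cenpc1/Gm2287 (farther start at 988 bp) had heights of 55, 33.7, 35.3 and 21.3 in female 1, female 2, male 1 and male 2, and Dirc2/Hspbap1 (996 bp) had 15, 19.7, 15.6 and 18.4. Just outside, Gm4211/9330111N05Rik (1002 bp) had 21, 28.8, 22.6 and 44.8, and Pinlyp/Xrcc1 (1003 bp) had 63, 35.4, 32.5 and 24.2.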

How the data were processed

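The authors called peaks in each library and merged them into common regions, per the file headers; the submitters' processing notes name BWA, MACS2 2.1.0 and mm10, with 10 PCR cycles per the labels' protocols. Whether duplicates were removed or reads shifted for Tn5 is not stated in these. The deposited heights are a coverage signal, scaled by a factor per library by the authors and averaged over the regions linked to a gene; its basis is not stated, and a scaling that does not equalise the libraries moves every sex difference together. Regions were joined to genes by the deposited interval names, and starts were taken from the deposited distances. Per-library columns not used numbered 0.

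Heights were compared as log2(height + 9), one row per distinct set of regions (9357), needing a height above 0 in at least 2 libraries, with limma 3.58.1 (R 4.3.3, with trend, no block) and an adjusted p threshold of 0.05; on this scale folds of low regions are understated. The limma script was tested on simulated data drawn with no shift between libraries. The real heights have such shifts, so the simulation does not cover them. A peak counted where it overlapped the region by at least 1 bp. RefSeq windows (GRCm38.p6) were used where their start lay within 100 bp of the deposited start. Python 3.11.15, pandas 2.3.3, numpy 2.4.6, scipy 1.17.1 and matplotlib 3.10.9 were used. The members, gene lists and tests were chosen with earlier results of these data known. Regions named in the text were the called ones, filled to 6 in each direction by regions whose sexes did not overlap relative to the median, the 6 highest, known pairs that were members (some are not reported here), the highest of each list, regions with peaks in 1 sex only and those at the limit; Fbxo43/1700074I03Rik, Rpph1/Parp2, Rmrp/Ccdc107 and the Hook1 and Cby1 windows were picked after their values were seen. Alternatives covered the pseudocount (1 and 36), filters, centring, quantile normalization, trend, a replicate block, one row per gene, the distance limit (500 bp), peak overlap and each library left out.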

Additional observations from a re-analysis of the deposited data

How the results depend on the processing

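The number of regions called lower in males by limma, 1 of 825, was 0 with libraries centred on their medians, 0 with quantile normalization, 0 of 717 with rows at or below the 25th percentile of mean height left out, 0 of 703 with divergent starts only (the Hook1 starts are crossed) and 33 without trend (all rows 4.06%); leaving out each library in turn it ran from 0 to 422. The number called higher, 0, ran from 0 to 2 over the same libraries. The Hook1 region was not among the 717 left by the filter on mean height, so the 0 there is no test of it. With the replicate number as a block the counts were 426 lower and 0 higher (all rows 58.9% and 0.0641%), but the numbers are not stated to pair the samples. The correlation of same-numbered deviations from the library medians was 0.0113. It cannot register a shift common to all rows, so it does not show why the block changed the counts. The median difference of replicate 2 minus replicate 1 was -0.27 in females and -0.47 in males. The median difference relative to all rows, 0.03, was 0.0816 with a pseudocount of 1 and -0.0015 with 36. The share of regions with a peak in all libraries, 40.4%, was 43.6% with a limit of 500 bp, 16.7% where a peak had to cover 50% or more of the region, and 40.7% to 55.5% without 1 library; the cause of these changes was not tested beyond the fewer libraries or regions entering them. Heights of 44 further regions separated by subtraction, an alternative chosen after seeing the data, gave 1 call of 869. Of 165 values of named regions under alternatives, 143 kept their direction and side of the threshold, 17 passed it newly and 5 no longer passed. The values that no longer passed were all of the Hook1 region, the only region that had passed. The new passes came from the fits without trend, with the replicate block or without male 1. The setting without a filter repeated the main fit, so its values could not change. Depth is unknown, so no limit of detection is given.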
